A study of Mus musculus with 12 samples.

Results

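The genes described are 10 genes of bile acid synthesis and its control in mouse liver, chosen by name: Cyp7a1, Cyp8b1, Cyp27a1, Cyp7b1, Hsd3b7, Akr1d1, Slc27a5 and Baat, which encode enzymes, and Nr1h4 (FXR) and Nr0b2 (SHP), which encode nuclear receptors that control them. All 10 were found among the 54532 genes counted, and all 10 passed the filter on low counts that left 14277 genes for testing. Bulk RNA sequencing was run on whole liver of 12 male mice that all carried a floxed Slc25a34 allele, with loxP sites in the promoter and in intron 1. At 2 months of age they received AAV8-TBG-Cre, giving the hepatocyte knockout (Slc-HKO, here HKO), or AAV8-TBG-GFP, giving the WT control (WT). The TBG promoter is active in hepatocytes, and the labels state that the virus reaches more than 95% of them, so the gene is not targeted in other liver cells. After 1 month on chow the mice had 2 further months of chow or of a fast-food diet (FFD), whose composition is not given in the sources used here, and all had fasted for 16 h at harvest. The 4 groups, WT on chow, HKO on chow, WT on FFD and HKO on FFD, held 3 mice each.

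Bile acids are made from cholesterol in hepatocytes and secreted into bile, where they help to take up dietary fat. In the classical pathway CYP7A1 catalyses the rate-limiting step, and in the alternative pathway CYP27A1 and CYP7B1 act first on the side chain and then on the ring. CYP8B1 adds the hydroxyl group that separates cholic acid from the other primary bile acids, HSD3B7 and AKR1D1 modify the rings, and SLC27A5 and BAAT join the finished acid to taurine or glycine. Bile acids activate FXR, which induces SHP, and SHP represses transcription of Cyp7a1 and Cyp8b1.

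Total counts per library lay between 12842187 and 24332663. Slc25a34, the targeted gene, stood at 6.89, 4.92 and 6.99 CPM (counts scaled to a common library size) in WT on chow and at 0.308, 0.720 and 0.585 CPM in HKO on chow. On FFD it stood at 1.73, 4.81 and 3.43 CPM in WT and at 0.269, 0.238 and 0.732 CPM in HKO, so in each diet every HKO mouse lay below every WT mouse. The labels were checked against tissue markers: 5 hepatocyte markers summed to between 52870 and 66810 CPM in every library, and 4 pancreas markers to between 4.6 and 10.9 CPM. Libraries that stood apart in other markers were WT chow replicate 3 and WT FFD replicate 2, in which 6 acute phase genes summed to 9532 and 7042 CPM, whereas the remaining 10 gave 2713 to 4701 CPM. HKO chow replicate 2 had the highest Muc6, Tff2 and Krt19, at 10.2, 5.70 and 6.64 CPM, against at most 1.08, 0.462 and 1.96 CPM in any other library. Of the other listed cholangiocyte and gallbladder markers, Epcam was also highest there. Krt7, Sox9, Spp1, Cldn4, Cftr and Aqp1 were each higher in another library. In bulk tissue, fewer cells that express a gene and less of its RNA per cell cannot be told apart.

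Proximal promoter sequence was available for 6 of the 10 genes, namely Akr1d1, Cyp27a1, Cyp8b1, Hsd3b7, Nr0b2 and Nr1h4, as RefSeq entries on GRCm38.p6. The windows searched ran from 250 bases before to 50 bases after the annotated start. They were searched on both strands for AGGTCA, the core element of many nuclear receptors, for its inverted repeat AGGTCANTGACCT (FXR with RXR), its direct repeat AGGTCANAGGTCA (HNF4A), CAAGGNCA (LRH-1, the receptor through which SHP acts on these genes) and TGTTTAC (FOXA). A CAAGGNCA match with T at the open base also holds AGGTCA. Shown are the 250 bases before the start of the 4 genes with a match, 5′ to 3′ on the gene's own strand, with the matching letters in capitals.
Cyp8b1 (chr9:121916306-121916555, minus strand): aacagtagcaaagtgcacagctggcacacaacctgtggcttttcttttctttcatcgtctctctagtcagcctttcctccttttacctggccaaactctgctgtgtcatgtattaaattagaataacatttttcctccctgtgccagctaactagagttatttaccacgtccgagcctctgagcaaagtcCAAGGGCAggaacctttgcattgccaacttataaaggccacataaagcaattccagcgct
Nr0b2 (chr4:133553126-133553375, plus strand): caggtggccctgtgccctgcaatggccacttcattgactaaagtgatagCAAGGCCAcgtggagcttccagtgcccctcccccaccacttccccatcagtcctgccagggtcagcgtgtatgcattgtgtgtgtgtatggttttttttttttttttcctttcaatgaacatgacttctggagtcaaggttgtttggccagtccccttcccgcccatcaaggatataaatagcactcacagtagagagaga
Nr1h4 (chr10:89506659-89506908, minus strand): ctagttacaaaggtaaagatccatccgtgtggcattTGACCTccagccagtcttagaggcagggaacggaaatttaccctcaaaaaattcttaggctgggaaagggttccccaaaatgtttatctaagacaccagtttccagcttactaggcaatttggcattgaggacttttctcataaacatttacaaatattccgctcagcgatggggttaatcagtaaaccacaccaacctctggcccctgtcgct
Akr1d1 (chr6:37529923-37530172, plus strand): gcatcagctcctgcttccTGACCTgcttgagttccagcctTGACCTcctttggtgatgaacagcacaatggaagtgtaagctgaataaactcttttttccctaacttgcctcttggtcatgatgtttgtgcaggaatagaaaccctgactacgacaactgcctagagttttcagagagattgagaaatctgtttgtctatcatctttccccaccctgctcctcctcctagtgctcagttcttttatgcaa

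The LRH-1 letters were present in Cyp8b1, 60 bases before the start, and in Nr0b2, 201 bases before it, both on the gene's strand. Of all 32851 RefSeq promoter windows 6.71% hold them. AGGTCA was present on the opposite strand in Nr1h4, 214 bases before the start, and in 2 copies in Akr1d1, 232 and 210 bases before it, and 16.3% of all promoters hold it. The window of Nr1h4 lies inside the gene, at an internal start site. The inverted repeat, the direct repeat and the FOXA letters, held by 0.00913%, 0.0396% and 3.65% of all promoters, had no match in the 6 windows. A match of letters is a description of the sequence and shows no binding.

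Scaled by gene length, the 10 genes covered a wide range of levels (CPM per kb, median over the 12 mice). Slc27a5 was highest at 323, followed by Cyp8b1 at 250.4, Cyp27a1 at 237, Baat at 149, Cyp7b1 at 115, Nr1h4 at 57.3, Cyp7a1 at 41.5, Akr1d1 at 37.7 and Nr0b2 at 25.5. The ranges over mice of each gene and the next in this order overlapped, except that Nr0b2, at its lowest 10.7 CPM per kb, stayed above Hsd3b7, at its highest 0.793 CPM per kb. The spread between mice differed between genes. Cyp7a1 varied 11.8-fold from the lowest to the highest mouse, Akr1d1 5.52-fold and Cyp8b1 3.73-fold, whereas Nr1h4 varied 1.46-fold and Slc27a5 1.40-fold.

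**Figure D1:**
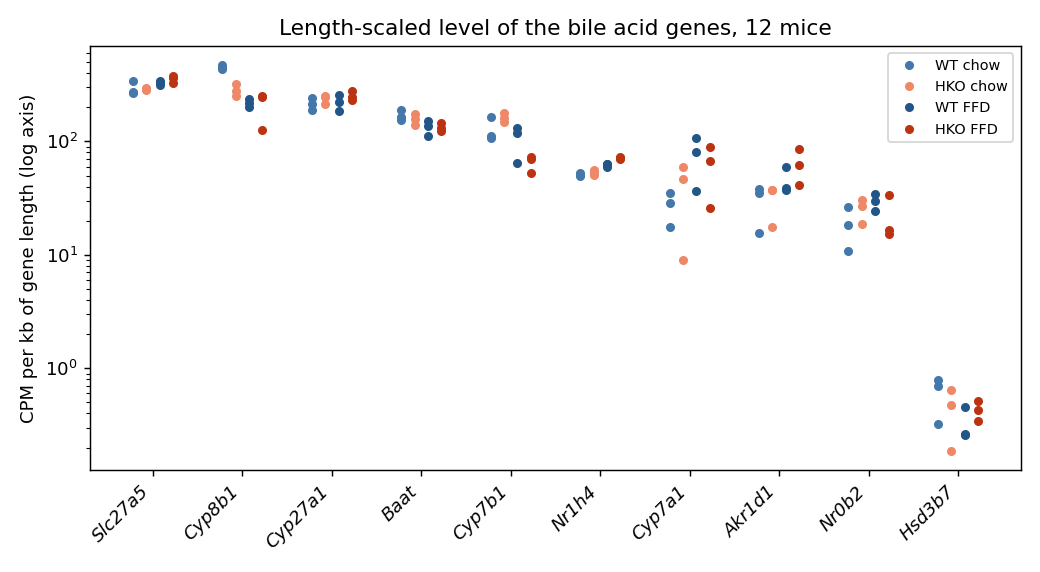
Level of each gene in CPM per kb of gene length on a log axis, 1 point per mouse, coloured by group, with genes ordered by their median over the 12 mice. Slc27a5 has the highest median at 323, Cyp7a1 spreads over 11.8-fold, and Hsd3b7 lies below all others.

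The level of Hsd3b7, the 3β-hydroxysteroid dehydrogenase of the pathway, could not be read from the counts. It received 8 to 37 reads per library. Of its 2769 exon bases, 2746 (99.2%) also belong to exons of 2 other annotated genes (GENCODE M21): 1717 bases to Gm49388 on the same strand and 1729 to 9430064I24Rik on the opposite strand. Gm49388 itself was listed at 0 counts in all 12 libraries. How the counting treated shared bases is not given in the sources used here, and its part in the level was not tested. None of the other 9 genes shares an exon base with another gene in that annotation, and Hsd3b7 is given below only with this limit.

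Cyp7a1 (chromosome 4: 6265612 to 6275633, mm10) was measured at 119, 147 and 73.4 CPM in WT on chow and at 194, 37.4 and 248 CPM in HKO on chow. On FFD it was measured at 443, 339.7 and 152 CPM in WT and at 283, 371 and 109 CPM in HKO. In WT every FFD mouse lay above every chow mouse, whereas in HKO the diets overlapped. The means were 113 ± 36.9 and 312 ± 148 CPM in WT and 160 ± 109 and 254 ± 134 CPM in HKO (SD, n = 3 each). Within HKO on chow alone the mice differed 6.62-fold, and the lowest of them is the library with the highest Muc6, Tff2 and Krt19. The part of these markers in this value was not tested. In WT the fitted FFD against chow difference was 1.46 ± 0.60 on the log2 scale (SE), a 2.76-fold higher level, which did not pass the threshold of 0.05 (adjusted p = 0.13, edgeR's quasi-likelihood test). It passed without HKO chow replicate 2, which enters the shared spread (log2 1.46, adjusted p = 0.042), in a fit of the WT groups alone (adjusted p = 0.043) and with no filter on low counts (adjusted p = 0.00034). The genotype differences were 0.50 on chow and −0.29 on FFD, with 95% intervals of −0.79 to 1.79 and −1.57 to 0.98, which are wide. The sign on FFD turned when HKO FFD replicate 3 (0.07) or WT FFD replicate 1 (0.05) was left out.

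Cyp8b1 (chromosome 9: 121914356 to 121916305), the sterol 12α-hydroxylase, was highest in WT on chow. It was measured at 841, 866 and 915 CPM in WT on chow, at 485, 623 and 544 CPM in HKO on chow, at 423, 463 and 393 CPM in WT on FFD and at 483, 492 and 245 CPM in HKO on FFD. All 3 WT chow mice lay above the other 9 mice, and HKO on FFD overlapped both remaining groups. In WT it fell on FFD by 1.04 ± 0.21 on the log2 scale, 2.05-fold (adjusted p = 0.0061, edgeR's quasi-likelihood test). In HKO the difference was −0.44 ± 0.20, 95% interval −0.88 to 0.0031, and did not pass (adjusted p = 0.18) except with no filter on low counts (log2 −0.42, adjusted p = 0.038). On chow, every HKO mouse lay below every WT mouse, with a difference of −0.67 ± 0.20, 1.59-fold lower, that did not pass (adjusted p = 0.25, edgeR's quasi-likelihood test) except with no filter on low counts (adjusted p = 0.0017). On FFD the genotype difference was −0.07 ± 0.20. The difference of the diet effects was 0.60 ± 0.29 (adjusted p = 0.57, edgeR's quasi-likelihood test), so the diet effect is not shown to differ between the genotypes.

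Set against each other per kb, Cyp8b1 exceeded Cyp7a1 15.2, 12.7 and 26.7 times in the WT chow mice and 2.04, 2.91 and 5.53 times in the WT FFD mice. In HKO the ratio was 5.34, 35.7 and 4.7 on chow and 3.66, 2.83 and 4.82 on FFD. The WT mice separated by diet in this ratio and the HKO mice did not. It is given as a description, since it was chosen after the values of both genes were seen.

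**Figure D2:**
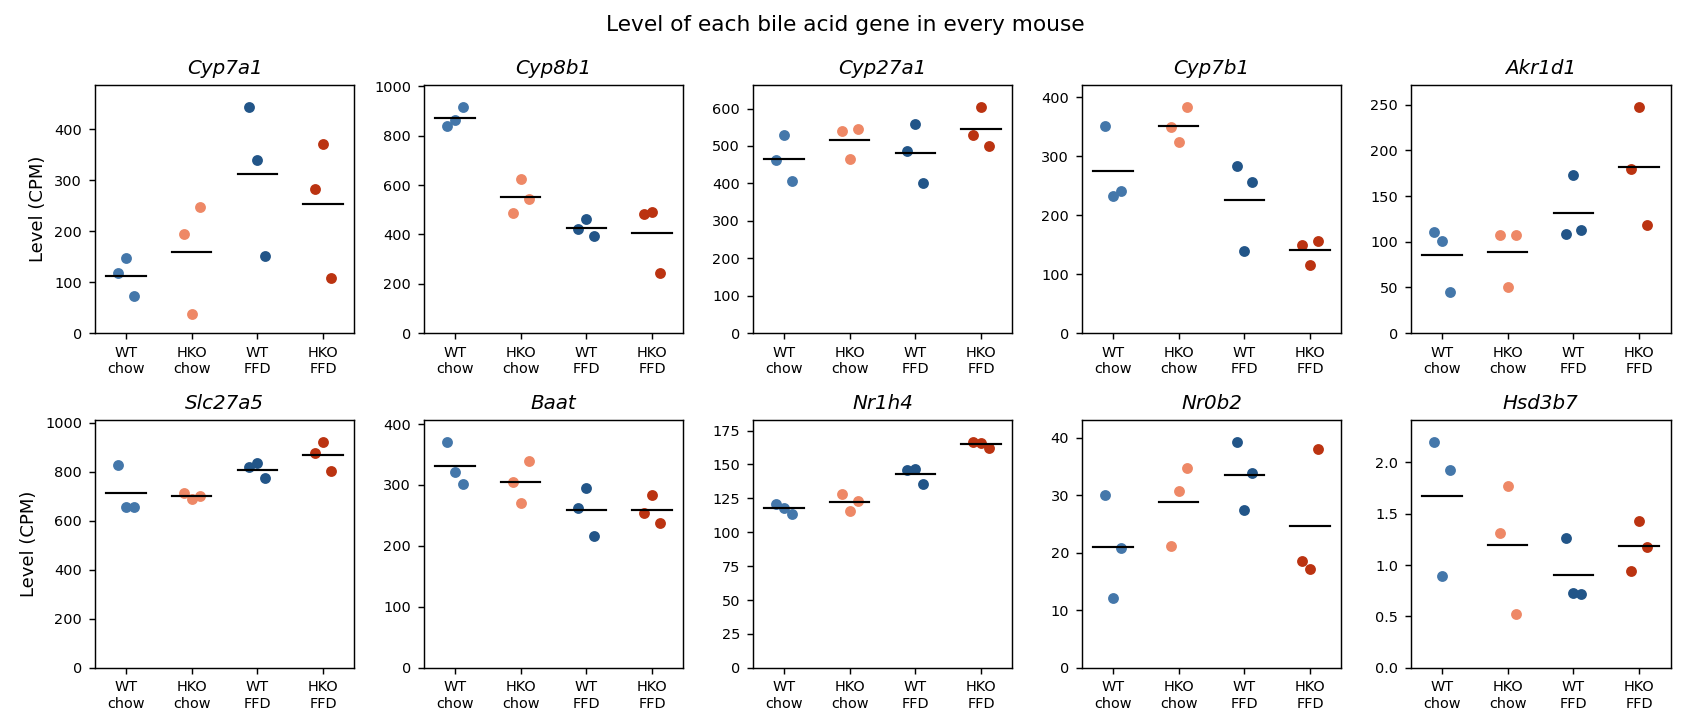
Level of each of the 10 genes in CPM (linear axis from 0), 1 panel per gene, with 1 point per mouse in the groups WT chow, HKO chow, WT FFD and HKO FFD and a line at the group mean. Cyp8b1 is highest in the 3 WT chow mice, Cyp7b1 lies low in the 3 HKO FFD mice, and every FFD mouse lies above every chow mouse for Nr1h4.

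Cyp27a1 (chromosome 1: 74713574 to 74737892), the mitochondrial sterol 27-hydroxylase, stood at 407 to 529 CPM in WT on chow, 466 to 544 CPM in HKO on chow, 400.2 to 559.5 CPM in WT on FFD and 500.0 to 603 CPM in HKO on FFD. All 4 groups overlapped. Its diet difference over both genotypes was 0.06 ± 0.09 (95% interval −0.14 to 0.27).

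Cyp7b1 (chromosome 3: 18071950 to 18243338), the oxysterol 7α-hydroxylase that follows it in the alternative pathway, was lowest in HKO on FFD. It was measured at 352, 233 and 241 CPM in WT on chow, at 350.3, 324 and 383 CPM in HKO on chow, at 283, 139 and 256 CPM in WT on FFD and at 150.3, 115 and 157 CPM in HKO on FFD. The HKO mice separated fully by diet, whereas 1 WT FFD mouse, at 139 CPM, lay within the HKO FFD range. In HKO it fell on FFD by 1.32 ± 0.24 on the log2 scale, 2.50-fold (adjusted p = 0.0036, edgeR's quasi-likelihood test). In WT the difference was −0.28 ± 0.23 (adjusted p = 0.45). Between genotypes it was 0.36 ± 0.23 on chow (adjusted p = 0.58) and −0.68 ± 0.23 on FFD (adjusted p = 0.37). The difference of the diet effects, −1.04 ± 0.33, did not pass either (adjusted p = 0.36). With no filter on low counts the FFD difference and the difference of the diet effects passed (adjusted p = 0.0056 and 0.0031).

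The per kb ratio of Cyp7a1 to Cyp7b1, chosen in the same way, ranged from 0.158 to 0.327 in WT on chow, 0.06 to 0.336 in HKO on chow, 0.308 to 1.27 in WT on FFD and 0.359 to 1.67 in HKO on FFD. The HKO mice did not overlap between diets, and 1 WT FFD mouse did.

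Akr1d1 (chromosome 6: 37530173 to 37568815), the Δ4-3-oxosteroid 5β-reductase, was measured at 110.2, 101 and 44.7 CPM in WT on chow and at 108, 50.7 and 108 CPM in HKO on chow. On FFD it was measured at 108, 173 and 113 CPM in WT and at 179, 247 and 118 CPM in HKO. The HKO mice separated by diet and the WT mice overlapped. The diet difference was 0.62 ± 0.37 in WT (adjusted p = 0.29) and 1.03 ± 0.37 in HKO (adjusted p = 0.084). Both passed with no filter on low counts (adjusted p = 0.034 and 0.0001), and the HKO difference also without WT chow replicate 3 (adjusted p = 0.042) and without both libraries with high acute phase genes (adjusted p = 0.033). Averaged over the genotypes it rose by 0.83 ± 0.26 on the log2 scale, 1.78-fold (adjusted p = 0.032, edgeR's quasi-likelihood test). The call was lost with a robust fit (adjusted p = 0.083) and when any of 5 libraries was left out, namely HKO FFD replicate 1, HKO FFD replicate 2, WT FFD replicate 2, WT chow replicate 3 or HKO chow replicate 2 (adjusted p = 0.053 to 0.085).

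Hsd3b7 (chromosome 7: 127800604 to 127803802), with the limit on its counts given above, stood at 0.894 to 2.20 CPM in WT on chow, 0.520 to 1.77 in HKO on chow, 0.718 to 1.27 in WT on FFD and 0.943 to 1.43 in HKO on FFD. All groups overlapped, and no comparison passed.

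The conjugation enzymes passed the test of the averaged diet effect in opposite directions. Slc27a5 (chromosome 7: 12988346 to 12998192), the bile acid-CoA ligase, was measured at 826, 657 and 658 CPM in WT on chow, 714, 687 and 701 CPM in HKO on chow, 819, 835 and 772 CPM in WT on FFD and 878, 920.2 and 803 CPM in HKO on FFD. The HKO mice separated by diet, and in WT the first chow mouse lay within the FFD range. The diet difference was 0.18 ± 0.10 in WT (adjusted p = 0.25) and 0.31 ± 0.10 in HKO (adjusted p = 0.059). The latter passed with DESeq2 (adjusted p = 0.021), with no filter on low counts (adjusted p = 0.047), in a fit of the HKO groups alone (adjusted p = 0.043) and without WT chow replicate 1 or 3 (adjusted p = 0.025 and 0.046), and the WT difference passed without WT chow replicate 1 (adjusted p = 0.046). Averaged over the genotypes it rose by 0.24 ± 0.07, 1.18-fold (adjusted p = 0.022, edgeR's quasi-likelihood test).
Baat (chromosome 4: 49489422 to 49506557), which adds taurine or glycine, was measured at 370.1, 321 and 301 CPM in WT on chow, 305, 271 and 339 CPM in HKO on chow, 263, 296 and 217 CPM in WT on FFD and 253, 284 and 237 CPM in HKO on FFD. Every WT FFD mouse lay below every WT chow mouse, and the HKO mice overlapped. The diet difference was −0.36 ± 0.13 in WT (adjusted p = 0.08) and −0.24 ± 0.13 in HKO (adjusted p = 0.24). The WT difference passed with DESeq2 (adjusted p = 0.048), with no filter on low counts (adjusted p = 0.038), without WT FFD replicate 2 (adjusted p = 0.048) and without both libraries with high acute phase genes (adjusted p = 0.039). Averaged over the genotypes it fell by 0.30 ± 0.09, 1.23-fold (adjusted p = 0.026, edgeR's quasi-likelihood test). The averaged call was lost for Slc27a5 without WT chow replicate 2 or HKO FFD replicate 2 (adjusted p = 0.055 to 0.056), and for Baat without HKO FFD replicate 1, HKO FFD replicate 3, WT chow replicate 1, HKO chow replicate 3 or WT FFD replicate 3 (adjusted p = 0.059 to 0.071).

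Nr1h4 (chromosome 10: 89454234 to 89533585), the bile acid receptor FXR, varied little within groups. It was measured at 121, 118 and 114 CPM in WT on chow and at 128, 116 and 123 CPM in HKO on chow. On FFD it was measured at 146.0, 146.3 and 136 CPM in WT and at 166.4, 165.7 and 162.4 CPM in HKO. Every FFD mouse lay above every chow mouse, and on FFD every HKO mouse lay above every WT mouse. It rose on FFD by 0.28 ± 0.07 in WT, 1.21-fold (adjusted p = 0.017, edgeR's quasi-likelihood test), and by 0.43 ± 0.07 in HKO, 1.35-fold (adjusted p = 0.0019). The WT call was lost without WT chow replicate 2 or 3 or WT FFD replicate 1 or 2 (log2 0.25 to 0.28, adjusted p = 0.053 to 0.062) without both libraries with high acute phase genes (log2 0.24, adjusted p = 0.11), with no filter on low counts (adjusted p = 0.084) and in a fit of the WT groups alone (adjusted p = 0.055). The genotype difference was 0.06 ± 0.07 on chow and 0.21 ± 0.07 on FFD (adjusted p = 0.33), and the diet effects did not differ past the threshold (0.15 ± 0.10, adjusted p = 0.69).

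Nr0b2 (chromosome 4: 133553376 to 133556536), the repressor SHP, was measured at 30.1, 12.1 and 20.8 CPM in WT on chow and at 21.2, 30.8 and 34.7 CPM in HKO on chow. On FFD it was measured at 39.2, 27.5 and 33.9 CPM in WT and at 18.6, 17.2 and 38.1 CPM in HKO. All groups overlapped. The diet difference was 0.68 ± 0.34 in WT (adjusted p = 0.21) and −0.22 ± 0.34 in HKO (adjusted p = 0.72), and the difference between these, −0.90 ± 0.47, did not pass (adjusted p = 0.63). The 95% interval of the latter was −1.93 to 0.13. With no filter on low counts the WT difference passed (log2 0.68, adjusted p = 0.015).

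Counted over the 10 genes, no member passed edgeR's quasi-likelihood test between genotypes. On chow 0 of 10 passed, beside 0.021% of all genes tested, and 1 (Cyp8b1) had an unadjusted p under 0.05, beside 11.8% of all genes. On FFD 0 of 10 passed, beside 0.007% of all genes, and 2 (Cyp7b1 and Nr1h4) had an unadjusted p under 0.05, beside 9.34%. Averaged over the diets 0 of 10 passed, beside 0.035%, and 2 (Cyp8b1 and Nr1h4) had an unadjusted p under 0.05, beside 12.2%. None of these counts stands far from its background. DESeq2 called 0 of 10 in each of these. Non-overlapping mice were seen for 1 gene on chow (Cyp8b1, lower) and 1 on FFD (Nr1h4, higher), against 14.2% and 16.4% of all genes, a share near the background. The interaction of diet and genotype passed for 0 of 10 and for 0% of all genes, and DESeq2 also called 0 of 10. An unadjusted p under 0.05 was found for 1 (Cyp7b1), beside 9.06% of all genes.

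Between diets 2 of 10 passed in WT, where 14.9% of all genes did: Nr1h4 was higher (8.24% of all genes were called higher) and Cyp8b1 lower (6.61%). In HKO 2 of 10 passed, where 13.6% of all genes did: Nr1h4 was higher (7.46% of all genes) and Cyp7b1 lower (6.12%). These counts are near the background. DESeq2 called 3 of 10 in WT, with Baat added, and 3 of 10 in HKO, with Slc27a5 added, and with no filter on low counts 5 passed in each genotype, in WT without Nr1h4. The count was 1 in WT without WT chow replicate 2, WT chow replicate 3 or WT FFD replicate 1, and 4 in HKO without WT chow replicate 3. Over all genes the calls in WT and HKO numbered 2121 and 1939 in the main fit. They numbered 2381 and 2245 with DESeq2, and 2293 and 2217 with no filter. The shares of 14.9% and 13.6% belong to the main fit, and shares under the other settings are not given. Groups did not overlap for 4 of 10 genes in WT (Cyp7a1, Cyp8b1, Baat and Nr1h4), against 32.6% of all genes, and for 4 of 10 in HKO (Cyp7b1, Akr1d1, Slc27a5 and Nr1h4), against 33.6%. Averaged over the genotypes 6 of 10 passed, against 26.8% of all genes: Nr1h4, Akr1d1 and Slc27a5 rose (13.9% of all genes did) and Cyp8b1, Cyp7b1 and Baat fell (12.9%). The averaged log2 differences were 0.35 ± 0.05 for Nr1h4 (adjusted p = 0.00022), −0.74 ± 0.14 for Cyp8b1 (adjusted p = 0.0026) and −0.80 ± 0.16 for Cyp7b1 (adjusted p = 0.0034, edgeR's quasi-likelihood test). Cyp7a1 had the largest averaged difference of the 10, 1.07 ± 0.42, and did not pass (adjusted p = 0.081) except without HKO FFD replicate 3 (log2 1.25, adjusted p = 0.044) and with no filter on low counts (log2 1.08, adjusted p = 8.7e-05). Full separation of 6 FFD from 6 chow mice was seen for Nr1h4 alone of the 10, against 11.3% of all genes. The median averaged log2 difference was 0.15 over the 10 genes and −0.01 over all genes tested.

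**Figure D3:**
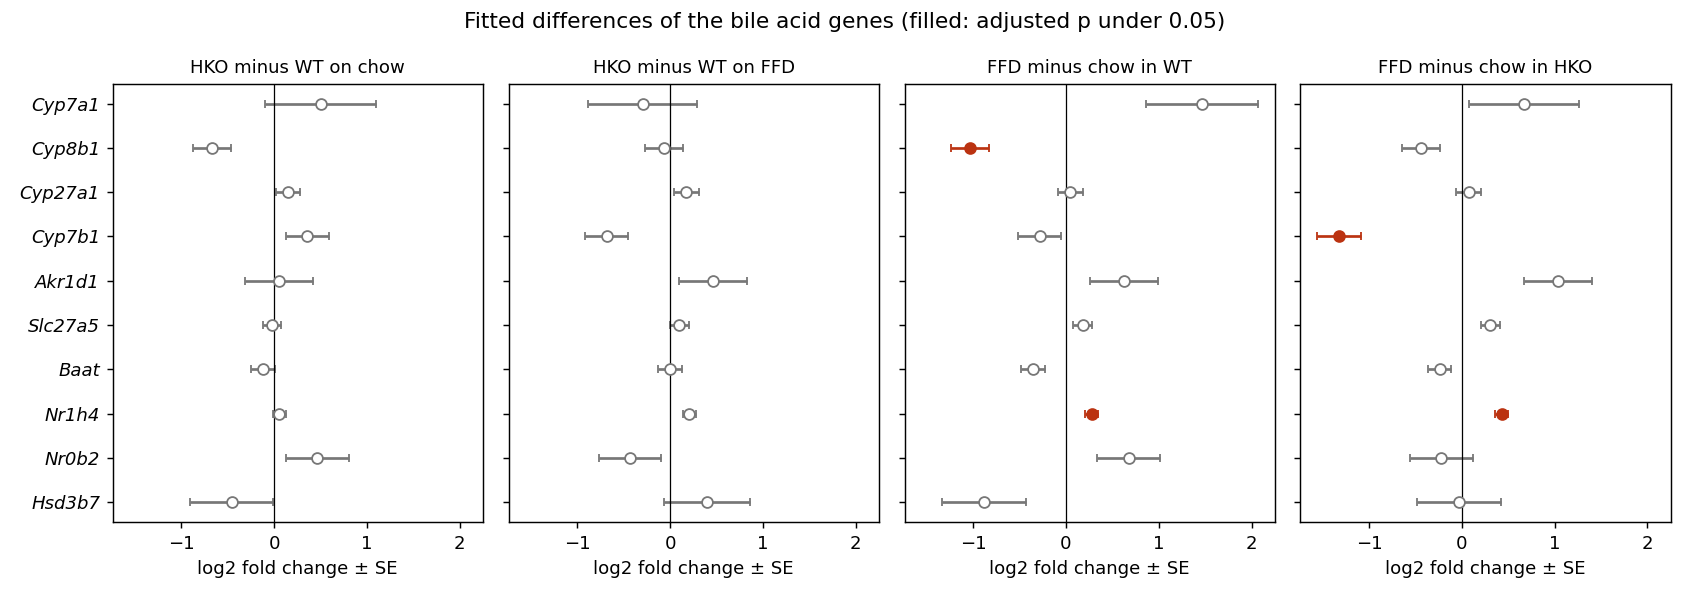
Fitted log2 fold change with its SE for each gene in 4 comparisons, HKO minus WT on each diet and FFD minus chow in each genotype, with filled points where the adjusted p is under 0.05. In WT Cyp8b1 (−1.04) and Nr1h4 (0.28) are filled, in HKO Cyp7b1 (−1.32) and Nr1h4 (0.43), and no point is filled between genotypes.

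An exact permutation test on the log2 CPM of single genes, which exchanged diets only within a genotype (400 arrangements, two-sided, smallest possible p = 0.005), gave p = 0.005 for Nr1h4, 0.01 for Cyp8b1 and Akr1d1, 0.015 for Baat and Slc27a5, 0.03 for Cyp7b1 and 0.065 for Cyp7a1. With genotypes exchanged within a diet the exact permutation test gave p = 0.02 for Nr1h4 and 0.06 for Cyp8b1. These p-values were not adjusted over the 10 genes. Within a single diet or genotype, 3 mice against 3 cannot give an exact p below 0.1. Zonal hepatocyte markers moved with diet as well: 6 pericentral markers summed to 8717 to 11520 CPM on chow and 13030 to 17060 CPM on FFD, 4 of the 6 were called higher on the averaged diet contrast, none was called lower and none was at 0 in any library. Most of the pericentral sum came from Cyp2e1, at 6709 to 8671 CPM on chow and 9473 to 13710 CPM on FFD. Of 6 periportal markers 2 were called lower, and their sum overlapped between diets (45530 to 56140 CPM on chow, 40840 to 50120 CPM on FFD). Of 6 Kupffer cell markers, which summed to 189 to 333 CPM over all libraries, 3 were called higher. Marco of that list had lower means on FFD, 19.2 against 26.7 CPM in WT and 5.54 against 14.55 CPM in HKO. Of all genes, 13.9% were called higher and 12.9% lower on the averaged diet contrast. The part of these markers in the diet differences of the 10 genes was not tested. Without the 2 libraries with high acute phase genes the averaged diet calls of Akr1d1 (log2 0.55, adjusted p = 0.10) and Slc27a5 (log2 0.21, adjusted p = 0.071) were lost, and those of Nr1h4, Cyp8b1, Cyp7b1 and Baat were kept.

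Pairs of genes, 6 in all, were compared across the 12 mice after each value was centred on its group mean, with exact permutation within groups (1296 arrangements) and adjustment over the 6 pairs. Cyp7a1 and Nr1h4 had the highest correlation, with Pearson's r = 0.826 (p = 0.0123, adjusted p = 0.0738, exact permutation test) and Spearman's rho = 0.573 (p = 0.117, adjusted p = 0.673, exact permutation test). Without the 2 mice farthest from the median of Cyp7a1, HKO chow replicate 2 and HKO FFD replicate 3, r was 0.767. No pair passed after adjustment. Cyp7a1 with its repressor's gene Nr0b2 had r = −0.384 and rho = −0.378, and Cyp8b1 with Nr0b2 had r = −0.548 and rho = −0.28 (adjusted p = 0.5 for both r and 0.673 for both rho, exact permutation tests). Leaving out 2 mice brought these to −0.165 and −0.105. Cyp7a1 with Cyp8b1 (r = 0.277, rho = 0.168), Cyp7a1 with Cyp7b1 (r = −0.0385, rho = −0.126) and Cyp8b1 with Cyp27a1 (r = 0.274, rho = 0.189) were weaker still.

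The genes whose log2 CPM followed a member most closely over the 12 libraries, among 12692 protein-coding genes, are given as a description with no test. For Nr1h4 these were Eif4a2 (r = 0.983), the pericentral drug oxidase gene Cyp2e1 (r = 0.977) and Xpr1 (r = 0.973). For Cyp8b1 they were Pglyrp2 (r = 0.941), the clock transcription factor gene Npas2 (r = 0.922) and Smarcb1 (r = 0.906). For Cyp7a1 they were Ermard (r = 0.911), Mcm8 (r = 0.907) and Fbxo40 (r = 0.903), and for Nr0b2 Spr (r = 0.876), Adamtsl5 (r = 0.836) and Olfr1396 (r = 0.786).

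Further genes of the pathway were read from 4 lists. Of 15 tested genes for other bile acid enzymes, 4 rose and 1 fell on FFD in WT, 5 rose and 0 fell in HKO, and 9 rose and 3 fell averaged over the genotypes. Of all genes tested, 8.24% rose and 6.61% fell in WT, 7.46% and 6.12% in HKO, and 13.9% and 12.9% averaged. Akr1c6, a hydroxysteroid dehydrogenase gene, was at 395 to 479.5 CPM in WT on chow and 766 to 978 CPM in WT on FFD, a rise of 0.96 ± 0.12 (adjusted p = 0.00049, edgeR's quasi-likelihood test). In HKO it rose by 0.80 ± 0.12 (adjusted p = 0.0013). Cyp2c70, which makes the muricholic acids of mice, was at 40.4 to 101 CPM in WT on chow and 138 to 314 CPM in WT on FFD, a rise of 1.69 ± 0.32 (adjusted p = 0.0052). Cyp46a1, a cholesterol 24-hydroxylase gene, was at 2.69 to 3.32 CPM in HKO on chow and 9.15 to 10.9 CPM in HKO on FFD, a rise of 1.72 ± 0.28 (adjusted p = 0.0023). Amacr, the racemase of the side chain, and Sult2a8, a bile acid sulfotransferase gene, rose in WT (0.54 and 0.48), and Slc27a2 and Ugt1a1 rose in HKO (0.36 and 0.40). Genes were named by the smallest p per comparison, so a gene named for 1 genotype can have moved in both. In HKO, Sult2a8 was at 598.5 to 658 CPM on chow and 766 to 828 CPM on FFD. Cyp2c70 was at 73.4 to 95.1 and 95.5 to 150 CPM there, and Amacr at 130 to 144 and 157 to 168 CPM. In WT, Cyp46a1 was at 2.12 to 4.45 and 4.18 to 8.52 CPM, and Slc27a2 at 1862 to 2126 and 2182 to 2309 CPM. Ugt1a1 overlapped between diets in WT. No gene of the list passed for the interaction. Ugt1a1 shares 58.9% of its exon bases with other Ugt1a genes. Akr1c6, Cyp2c70 and Sult2a8 belong to families of similar genes, so their counts are less certain. Over all 15, the median averaged difference was 0.27.

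Of 21 tested regulators, 3 rose and 4 fell in WT, 3 rose and 3 fell in HKO, and 6 rose and 6 fell averaged over the genotypes, with a median averaged difference of −0.0026. Of all genes, 8.24% rose and 6.61% fell in WT, 7.46% and 6.12% in HKO, and 13.9% and 12.9% averaged. Fgfr4, the liver receptor for the intestinal hormone FGF15, fell by 0.55 ± 0.14 in WT (adjusted p = 0.022) and by 0.72 ± 0.14 in HKO (adjusted p = 0.0069, edgeR's quasi-likelihood test). Smarca2, a chromatin remodeller, rose by 0.59 ± 0.09 in WT and by 0.66 ± 0.09 in HKO. Rxra, the partner of FXR, rose by 0.38 ± 0.09 in WT (adjusted p = 0.013), where Insig2 fell by 0.69 ± 0.18 and the clock output gene Dbp rose by 1.59 ± 0.29. Dbp shares 18% of its exon bases with Sphk2 on the opposite strand. In HKO Ppara rose by 0.46 ± 0.09 and the clock repressor gene Nr1d1 fell by 1.05 ± 0.25. Genes were named per comparison, and none of the 21 passed for the interaction, though DESeq2 called Dbp. In HKO, Insig2 was at 328.5 to 448 CPM on chow and 220.5 to 290 CPM on FFD, without overlap. Rxra was at 624 to 677 and 674 to 751 CPM there, and Dbp at 44.6 to 62.3 and 43.4 to 72.4 CPM. In WT, Ppara was at 249 to 280 and 294 to 335 CPM, and Nr1d1 at 87.8 to 129 and 70.8 to 98.9 CPM.

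Of 12 tested FXR target genes, 1 rose and 1 fell in WT, 2 rose and 0 fell in HKO, and 2 rose and 2 fell averaged over the genotypes, with a median averaged difference of −0.03. The averaged counts are near those of all genes, of which 13.9% rose and 12.9% fell. Of all genes, 8.24% rose and 6.61% fell in WT, and 7.46% and 6.12% in HKO. The list was not sorted by whether FXR raises or lowers each gene. These counts and this median therefore cannot show whether FXR activity changed. Averaged, Slco1b2, an uptake transporter gene, rose by 0.58 ± 0.07 (adjusted p = 0.00016) and Pltp by 0.48 ± 0.09 (adjusted p = 0.0014), whereas Abcb4, the phospholipid exporter of bile, fell by 0.31 ± 0.09 (adjusted p = 0.023) and Apoc2 by 0.47 ± 0.16 (adjusted p = 0.044), all by edgeR's quasi-likelihood test. Apoc2 shares 79.5% of its exon bases with Gm44805 on the same strand, and Pltp 19.3% with Ctsa on the opposite strand. Fgf15, Slc51a and Slc51b had too few reads to be tested.

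The 14 genes of cholesterol supply and sensing included 4 that rose and 8 that fell in WT, in HKO and averaged, with a median averaged difference of −0.69. Of all genes, 8.24% rose and 6.61% fell in WT, 7.46% and 6.12% in HKO, and 13.9% and 12.9% averaged. Sqle, an enzyme of cholesterol synthesis, fell by 3.50 ± 0.36 in WT and fell by 3.81 ± 0.36 in HKO, and Cyp51, another, fell by 2.15 ± 0.24 in WT and fell by 2.27 ± 0.24 in HKO (adjusted p = 0.0002, 0.00014, 0.0003 and 0.0002, edgeR's quasi-likelihood test). Abcg5, whose product exports sterols into bile, rose by 2.42 ± 0.18 in WT and by 1.65 ± 0.17 in HKO, and Abca1 by 1.11 ± 0.12 and by 1.12 ± 0.12. Abcg5 shares 3.02% of its exon bases with Abcg8, and Cyp51 3.76% with Akap9, each on the opposite strand. Between genotypes, 0 of the 62 tested genes of the 4 lists passed edgeR's quasi-likelihood test on chow, 0 on FFD and 0 averaged over the diets. For the interaction 0 passed. An unadjusted p under 0.05 was found for 11 of the 62 on chow, 19 on FFD, 17 averaged and 11 for the interaction. Of all genes 11.8%, 9.34%, 12.2% and 9.06% had one, so each share of the 62 lay above that of all genes, most clearly on FFD. This excess was not tested, and the lists were chosen with earlier results of these data known. DESeq2 called 2, 4, 5 and 1 of the 62 in the same order, where its calls over all genes numbered 119, 130, 234 and 87.

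**Figure D4:**
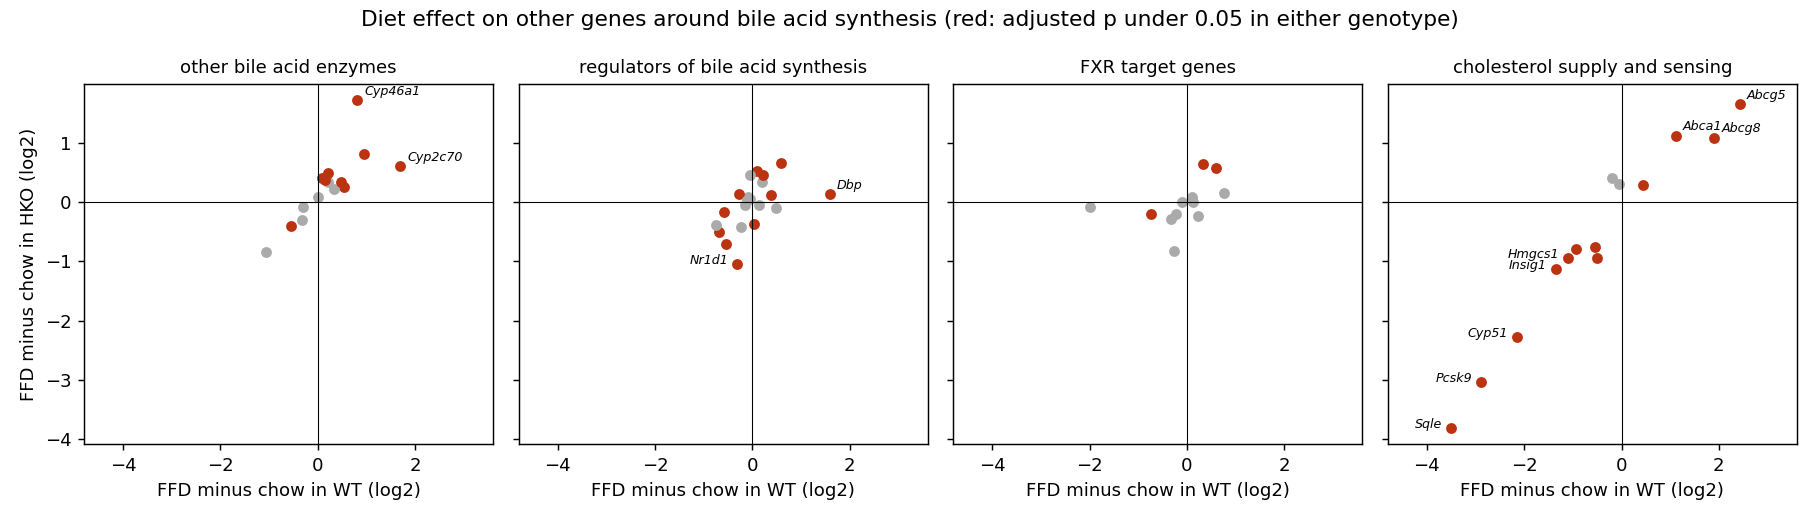
Log2 difference between FFD and chow in WT (horizontal axis) and in HKO (vertical axis) for the tested genes of 4 lists, 1 panel per list and 1 point per gene, red where the adjusted p is under 0.05 in either genotype. Sqle and Cyp51 lie at the lower left and Abcg5 at the upper right of the cholesterol panel. The median of the FXR targets averaged over the genotypes is −0.03, with targets not sorted by the direction in which FXR acts on them.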

How the data were processed

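Whole-liver RNA of 12 mice was sequenced. What the authors deposited are unnormalised read counts for 54532 genes in each mouse, with coordinates and a gene length that was used for CPM per kb. STAR and featureCounts 1.5.0-p3 were used with build mm10, per the submitters' processing notes; strand setting, STAR version and annotation release are not given in the sources used here. Columns were matched to mice by name, and groups were taken from genotype and diet in the labels, which number the mice separately. The column names also carry a running number, which is lower for every FFD mouse than for every chow mouse. Within FFD it is lower for every WT mouse than for every HKO mouse, and within chow lower for every HKO mouse than for every WT mouse. It is highest in WT chow replicate 3, apart from the other chow mice. What it stands for is not given. Anything that goes with it cannot be told apart from diet or, within a diet, from genotype.

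Counts were tested with edgeR 4.0.16 in R 4.3.3: filterByExpr, TMM scaling and a quasi-likelihood fit with 1 mean per group over all 12 libraries. Two-sided p-values were adjusted by Benjamini-Hochberg over 14277 genes per comparison, with 0.05 as the threshold. Log2 CPM for correlations and permutation used a prior count of 2. Fitted fold changes need not equal the ratios of group means. The script was tested on simulated data. Of 118 listed symbols 116 were matched in the table, and the other 2 are not analysed here. Of the table's identifiers 54409 were found in GENCODE M21, which was used for exon overlap, 98.33% of them with the same coordinates. No libraries of a group were identical.

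The 10 genes, the lists and the tests were chosen with earlier results of these data known. Named were Slc25a34, the 10 genes and the 3 genes most like a member. Of each list, up to 4 genes past the threshold were named by the smallest p per comparison. Muc6, Tff2, Krt19, the other named markers and the genes that share exon bases were chosen after their values were seen. The alternatives were RLE size factors, no filter, a filter of 1 CPM in 3 libraries, a robust fit, DESeq2 1.42.0, only the groups compared, a replicate block, and leaving out libraries.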

Additional observations from a re-analysis of the deposited data

How the results depend on the processing

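The diet calls of Cyp8b1 in WT, of Cyp7b1 in HKO, and of both genes averaged kept their direction and passed under every alternative run, as did those of Nr1h4 in HKO and averaged. With no filter on low counts, 1 of the 10 genes passed between genotypes on chow (Cyp8b1), 1 on FFD (Cyp7b1), 1 averaged (Cyp8b1) and 1 for the interaction (Cyp7b1), 5 in WT by diet and 5 in HKO by diet. With single libraries left out the count ranged from 1 to 3 in WT and from 2 to 4 in HKO. Over all genes the calls between genotypes on chow numbered 3, but 313 without HKO chow replicate 2, 395 with no filter and 119 with DESeq2. On FFD they numbered 1, but 30 without HKO FFD replicate 1, 306 with no filter and 130 with DESeq2; averaged they numbered 5, but 231, 454 and 234 without HKO chow replicate 2, with no filter and with DESeq2; and for the interaction 0, but 81, 238 and 87. By diet they ranged from 1113 to 2381 in WT and from 967 to 2245 in HKO.

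Signs that turned belonged to differences that did not pass. With single libraries left out, the genotype difference ranged from −0.26 to 0.33 for Akr1d1 and from −0.086 to 0.093 for Slc27a5 on chow, and on FFD from −0.68 to 0.067 for Cyp7a1, from −0.23 to 0.19 for Cyp8b1 and from −0.11 to 0.10 for Baat. The diet difference ranged from −0.068 to 0.17 for Cyp27a1 in WT, from −0.00195 to 0.13 for Cyp27a1 and from −0.39 to 0.40 for Hsd3b7 in HKO, and from −0.00901 to 0.41 for Nr0b2 averaged. Baat on FFD was 0.0048 with no filter. Without both libraries with high acute phase genes, Akr1d1 on chow was −0.26, Baat on FFD 0.10, and Cyp27a1 by diet −0.16 in WT and −0.041 averaged. The correlation of Cyp8b1 with Cyp27a1 became −0.0364 without 2 mice. The causes were not tested.

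Same-numbered mice did not deviate together (correlations −0.114 to 0.117), so the numbers pair no mice. With a replicate block, Baat between genotypes on FFD was 0.0021 and Hsd3b7 by diet in HKO was 0.015, no count of the 10 genes changed, and over all genes 0 were called between genotypes on chow, 2 on FFD and 1 for the interaction. Ranks by length-scaled level did not move under RLE factors or TPM. Both rescale all genes of a library together, so they could hardly move the ranks. With 3 mice per group, intervals for Cyp7a1 and Akr1d1 were wide, and Hsd3b7 is limited by its 8 to 37 reads.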

Other observations

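Cyp39a1, an oxysterol 7α-hydroxylase gene among the other bile acid enzymes, was chosen after its values were seen. It was measured at 15.5, 24.8 and 15.3 CPM in WT on chow and at 53.7, 24.0 and 45.3 CPM in HKO on chow, and at 7.31, 5.96 and 13.3 CPM in WT on FFD and at 17.8, 20.1 and 29.6 CPM in HKO on FFD. On FFD every HKO mouse lay above every WT mouse, and on chow 1 HKO mouse lay within the WT range. Averaged over the diets the HKO minus WT difference was 1.24 ± 0.24 on the log2 scale and missed the threshold (adjusted p = 0.083, edgeR's quasi-likelihood test), whereas DESeq2 called it. The gene fell on FFD averaged over the genotypes by 0.96 ± 0.24 (adjusted p = 0.011).

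Sox9, a cholangiocyte marker, fell on FFD by 1.72 ± 0.21 in WT (adjusted p = 0.00051) and by 1.04 ± 0.21 in HKO (adjusted p = 0.0082, edgeR's quasi-likelihood test). On chow it was at 13.1 to 17.8 CPM in WT and 8.69 to 8.93 CPM in HKO, a difference that was not called. By diet it was the 1 called gene of 7 tested on its marker list. Of all genes, 6.61% were called lower in WT and 6.12% in HKO, beside which a count of 1 in 7 tells little. The median difference of these 7, averaged over the genotypes, was −1.11, with Krt19 at −1.42 (adjusted p = 0.073) and Epcam at −1.11 (adjusted p = 0.081, edgeR's quasi-likelihood test). In HKO on chow, Krt19 was at 0.770, 6.64 and 0.650 CPM and Epcam at 1.39, 5.48 and 1.755 CPM, each highest in replicate 2. On FFD the HKO mice were at 0.875 to 1.13 and 1.02 to 1.75 CPM, so without that chow mouse Krt19 was not lower and Epcam overlapped. In WT, Krt19 was at 0.642 to 1.96 CPM on chow and 0.410 to 0.633 CPM on FFD, and Epcam at 0.578 to 4.81 and 1.18 to 1.32 CPM. Other markers among the 7 moved less or rested on the same mouse. The mean of Spp1 was 31.8 CPM on chow and 25.2 CPM on FFD in WT, but 27.7 and 29.6 CPM in HKO. That of Krt7 was 0.929 and 0.776 CPM in WT, and 0.752 and 0.721 CPM in HKO. Muc6 was at 1.08, 10.2 and 0.390 CPM in HKO on chow, again highest in replicate 2, and at 0.119 to 0.943 CPM in HKO on FFD. The summed level of the list overlapped between diets, at 139.6 to 217 CPM on chow and 149 to 169.9 CPM on FFD, but most of it came from Aqp1, at 103 to 146 CPM (averaged difference −0.04). Sox9, Krt19, Epcam and Aqp1 were chosen after their values were seen.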
